A study of Mus musculus with 5 samples.

Results

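The interleukin-6 (IL-6) family and its feedback were described through 10 genes of cultured mouse cardiac fibroblasts (CF). These were the ligands *Il6*, *Lif*, *Il11* and *Clcf1*, the receptor chains *Il6ra*, *Il6st*, *Lifr* and *Osmr*, the transcription factor *Stat3* and the feedback inhibitor *Socs3*. They were picked by name, and for each a single 3′ UTR interval was used, that of highest mean deposited CPM after labeling. All 10 were found among the 20365 gene names of the tables.

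CF were isolated from hearts of adult healthy male C57Bl/6J wildtype mice by collagenase perfusion and grown to confluency before the experiment. In 3 libraries the cells had received 0.1 mM 4-thiouridine (S4U), a uridine analog, for 12 h, and these are called labeled. In 2 libraries the cells were kept for the same 12 h without S4U, and these are called unlabeled. In SLAMseq, alkylated S4U is read as C in place of T, and the share of covered T positions read as C is the T>C conversion rate, which is higher the larger the part of a transcript made during labeling. All cells, the unlabeled ones included, were wildtype, unstressed by surgery, held in culture medium with serum, and their RNA was alkylated. The labels do not say which libraries came from the same heart preparation, so the p-values below measure only the spread between these 5 libraries.

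Ligands of the IL-6 family bind a private receptor chain or a partner chain and signal through the shared chain gp130, the product of *Il6st*. Bound receptors activate JAK kinases, which phosphorylate STAT3, and STAT3 moves to the nucleus and activates genes that include *Socs3*, whose product blocks gp130 signaling. In the heart, fibroblasts are a known source of IL-6, LIF and IL-11, and messenger RNAs of such cytokines are known for AU-rich elements in the 3′ UTR, to which decay factors bind.

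On 1 interval per gene, between 506045 and 1576048 reads were counted in the labeled libraries and 996143 and 1843033 in the unlabeled ones, with labeled replicate 3 the shallowest. The T>C conversion rate over all intervals was 0.0353, 0.0358 and 0.0356 in the labeled libraries and 0.00111 and 0.000652 in the unlabeled ones. The 9 fibroblast markers had reads in every library, with a summed level of 39018 to 42627 CPM relative to counted reads in the labeled and 31754 to 35223 in the unlabeled libraries, where the groups did not overlap. Of the markers of other cells, the 10 of macrophages and leukocytes summed to 125 to 177 CPM against 131 to 201, and the 8 of endothelium to 145 to 256 against 180 to 265. The 7 of pericytes and smooth muscle summed to 67.8 to 136 CPM against 89.3 to 139, and the 8 of cardiomyocytes to 0.634 to 7.53 against 2.17 to 9.03, with *Actn2*, *Ryr2* and *Myl2* at 0. None of the 5 T and B cell markers had a read, and the 4 neutrophil markers summed to at most 1.27 CPM. The part of these other cells in the results below was not tested. In bulk samples fewer cells of a type and less RNA per cell cannot be told apart.

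The letters ATTTA, the core of AU-rich elements, stood in the 3′ UTR interval of every member, and the longer run TATTTAT stood in those of the 4 ligands and of *Socs3* but in none of the 4 receptor chains or of *Stat3*. Shown are 30 bases of each of these 5 intervals and, for comparison, of *Il6st*, from GRCm39, 5′ to 3′ on the strand of the gene, at the place with the most ATTTA. Capitals mark ATTTA, and matches were sought on the transcript strand only, where TATTTAT always contains ATTTA.
Il6, plus strand, chr5:30224682-30224711: atttttaATTTAttgataATTTAaataagt
Lif, plus strand, chr11:4222414-4222443: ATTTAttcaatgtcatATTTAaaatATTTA
Il11, minus strand, chr7:4776496-4776525: cagatcttATTTATTTATTTAttttggtac
Clcf1, plus strand, chr19:4273458-4273487: atATTTATTTAtttggagatgttATTTAtt
Socs3, minus strand, chr11:117856961-117856990: tgcacatatATTTAtATTTAtactcagaaa
Il6st, plus strand, chr13:112641257-112641286: agaaaacgggggATTTAaatgagccacaat

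*Il6* had 6 ATTTA and 1 TATTTAT in an interval of 507 bases, the shortest of the 10. At least 6 ATTTA stood in 0.652% of the intervals of like length (between 0.8 and 1.25 times its length), and TATTTAT in 12.9%. *Il11* had 10 ATTTA and 6 TATTTAT in 1194 bases, and as many ATTTA stood in 0.288% and as many TATTTAT in 0.108% of the intervals of like length. *Clcf1* had 4 of each in 937 bases, with as many ATTTA in 13.4% and as many TATTTAT in 0.332% of like intervals, and *Lif* had 7 ATTTA and 5 TATTTAT in 3180 bases, with as many ATTTA in 36.3% and as many TATTTAT in 1.18%. *Socs3* had 4 ATTTA and 2 TATTTAT in 1474 bases, and 30.6% of like intervals held as many ATTTA and 9.97% as many TATTTAT. Of the receptor chains, *Lifr* had 11 ATTTA in 6320 bases, *Il6st* 6, *Osmr* 4 and *Il6ra* 1, and *Stat3* had 2. The TATTTAT that these 5 lack stood in 37.7% to 70.9% of the intervals of their length. Per 1000 bases, *Il6* at 11.8 and *Il11* at 8.38 had the most ATTTA among the members, against 1.85 over all genes. These matches describe the letters only, and the binding of a factor was not measured.

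**Figure D1:**
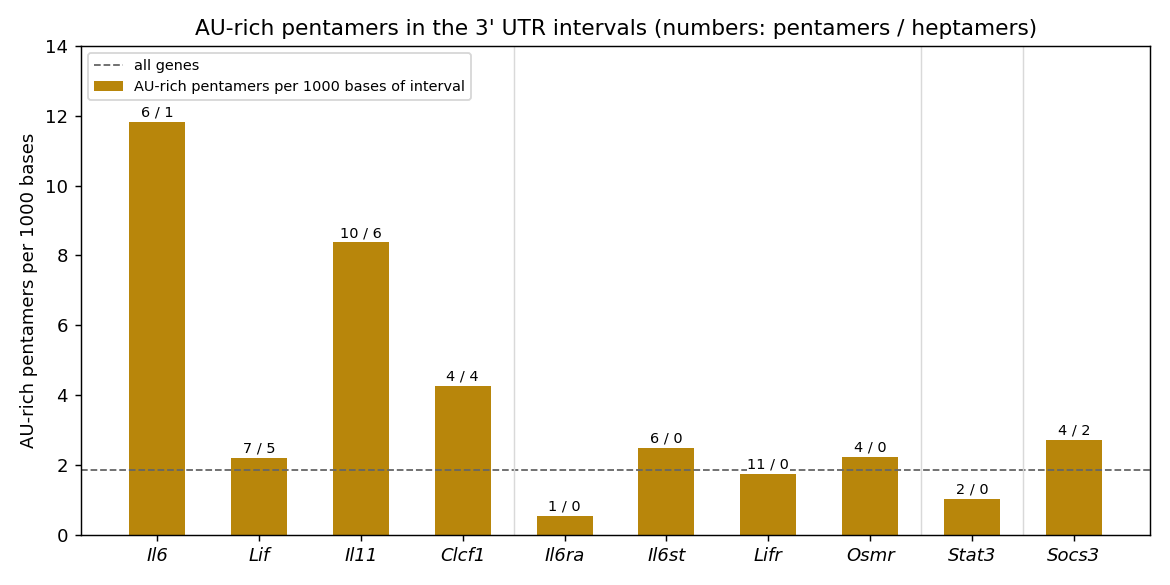
AU-rich pentamers (ATTTA) per 1000 bases of the 3′ UTR interval of each member, on the y axis, with the number of pentamers and of heptamers (TATTTAT) written above each bar and the value over all genes as a dashed line. *Il6* at 11.8 and *Il11* at 8.38 are the highest bars, and heptamers are at 0 in the receptor chains and *Stat3*.

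All 9 members that could be tested had a higher T>C conversion rate with S4U than without it (beta-binomial test fitted over all intervals, unadjusted p under 0.05). Such a call was made for 94.6% of the 19240 intervals tested, so the count of members is near the background. The p-values of the members ran from 5.55e-07 for *Socs3* to 0.00173 for *Il6ra*. *Il11* was not tested, because no T position of it was covered in unlabeled replicate 2. The rates were then compared among the members and with the 2107 genes whose covered T positions numbered 1000 or more per library. The median labeled rate of these deeply covered genes was 0.0388, between quartiles of 0.0343 and 0.0422.

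*Il6* (ENSMUSG00000025746, the founding ligand) lies on the plus strand at chr5:30224467-30224973 of GRCm39, in the last exon, and its interval overlaps the lncRNA *Gm42450* on the other strand. Its T>C conversion rate was 0.0337, 0.0464 and 0.0441 in the labeled libraries, and 0.000240 and 0 in the unlabeled ones. The groups did not overlap (0.0414 ± 0.00677, SD, n = 3 labeled libraries, at the percentile 69.7 of the deeply covered genes). The beta-binomial test gave p = 1.47e-05. The share of *Il6* reads with a conversion was 57.8%, 73.1% and 76.7%, the highest among the members in the mean but in no single labeled library, with 29.7 to 33.3 covered T positions per read in these libraries against a median of 20.3 over 7803 genes.

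*Lif*, the ligand of the LIF receptor, lies at chr11:4219335-4222514 on the plus strand, in the last exon. Its rate was 0.0509, 0.0338 and 0.05 in the labeled libraries, with 41, 13 and 5 conversions. It was 0.00437 in unlabeled replicate 1, from 1 conversion, and 0 of 75 covered T positions in unlabeled replicate 2, which allows a rate of up to 0.04. The labeled mean of 0.0449 ± 0.00965 (SD, n = 3) was at the percentile 88.8. It was the highest of the 10 members, but not with background subtraction, where *Clcf1* was at 0.0431 and *Lif* at 0.0427, nor without labeled replicate 1 or 3, where *Lif* was at 0.0419 and 0.0423. By the share of reads with a conversion, *Lif* ranked at place 5. The beta-binomial test over all intervals gave p = 0.000779.

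*Clcf1*, a ligand that signals through gp130 and the LIF receptor chain, lies at chr19:4272623-4273559 on the plus strand, in the last exon. Its interval overlaps *Gm45928* on the same strand, so reads of the pair cannot be told apart there. It also overlaps the lncRNA *1500032F14Rik* on the other strand. Its rate was 0.0428, 0.0491 and 0.0373 in the labeled libraries, from 537, 387 and 241 covered T positions, and no conversion was seen in the unlabeled ones, from 225 and 75, which allows rates of up to 0.0133 and 0.04. The labeled mean was 0.0431 ± 0.00588 (SD, n = 3). The beta-binomial test gave p = 9.28e-05.

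*Il11*, a ligand known for its part in cardiac fibrosis, lies at chr7:4775372-4776565 on the minus strand, in the last exon. Its rate rested on 1, 5 and 5 conversions and was 0.0080, 0.0746 and 0.0345 in the labeled libraries. The exact (Clopper-Pearson) 95% intervals of 0.000203 to 0.0438, 0.0247 to 0.166 and 0.0113 to 0.0786 overlap one another. The mean of 0.0390 ± 0.0335 (SD, n = 3) depended on single libraries, being 0.0212 without labeled replicate 2. Intervals of this kind, and limits where no conversion was seen, cover counting error only.

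*Il6st* encodes gp130, the shared chain, and lies at chr13:112640980-112643394 on the plus strand, in the last exon. It was the most precisely measured receptor chain, with rates of 0.0344, 0.0370 and 0.0362 in the labeled libraries and 0.00123 and 0.000234 in the unlabeled ones. The labeled mean of 0.0359 ± 0.00132 (SD, n = 3) stood at the percentile 31.6 of the deeply covered genes. *Osmr*, the chain that pairs with gp130 for oncostatin M, lies at chr15:6843049-6844851 on the minus strand. Its rates were 0.0369, 0.0360 and 0.0295 against 0.000194 and 0.000306. Its labeled mean of 0.0341 ± 0.00402 (SD, n = 3) was at the percentile 24.5. It was the lowest of the 10 members, but *Lifr* at 0.0308 was lower with intervals summed, *Il6ra* at 0.0316 and *Il11* at 0.0326 were lower than *Osmr* at 0.0355 with pooling, and *Osmr* ranked at place 8 without labeled replicate 2 or 3. By the share of reads with a conversion, *Osmr* ranked at place 6.

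*Lifr*, the chain for LIF that pairs with gp130, lies at chr15:7220651-7226970 on the plus strand. Its rates were 0.0422, 0.0408 and 0.0248 in the labeled libraries, with 103, 33 and 9 conversions, and 0.00120 and 0.000840 in the unlabeled ones. Labeled replicate 3 was the lowest and also the shallowest, and its 95% interval of 0.0114 to 0.0465 holds the other labeled rates. The tables have 5 intervals named *Lifr*, and the longest that does not overlap the first, at chr15:7214556-7214827, is the last exon of a shorter transcript and overlaps the lncRNA *Gm62217* on the other strand. This interval held 20, 11 and 3 reads in the labeled libraries and 14 and 6 in the unlabeled ones, which was 17.2%, 25% and 18.8% of the *Lifr* reads on both intervals against 5.34% and 6.25%. Its rate was 0.0246, 0.0146 and 0, and 0 in both unlabeled libraries (beta-binomial test over all intervals, p = 0.0119). The labeled shares were all above the unlabeled ones, and a difference in their reads was not tested.

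*Il6ra*, the private chain for IL-6, lies at chr3:89776631-89778467 on the minus strand, in the last exon. Its rates were 0.0149, 0.0458 and 0.0504 in the labeled libraries, and no conversion was seen in the unlabeled ones, from 501 and 164 covered T positions, which allows rates of up to 0.00599 and 0.0183. Labeled replicate 1 was low and the other two were high, and the 95% intervals of the 3 libraries, 0.00408 to 0.0378, 0.0170 to 0.0970 and 0.0205 to 0.101, overlap. The 83, 21 and 15 reads of *Il6ra* in these libraries covered only 3.23, 6.24 and 9.27 T positions each. Of the 7803 genes with 100 or more reads over the libraries, 0.192% had fewer covered T positions per read over all libraries. The interval of *Il6ra* has a stretch of 60 bases without a T. Of 19580 genes whose interval has at least 60 bases, 2.93% have such a stretch, and 7.62% have one with at most 2 T. The stretch is rich in A on the strand of the gene, as the following 30 bases of GRCm39 show, in which capitals mark A. Whether the reads lie at this stretch was not tested.
Il6ra, minus strand, chr3:89777348-89777377: AAAAAAAAAcAAAAccAAAAAccAAAAAAA

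*Stat3* lies at chr11:100777632-100779586 on the minus strand, in the last exon. Its labeled rates of 0.0451, 0.0447 and 0.0432 differed least among the members (0.0443 ± 0.000996, SD, n = 3), at the percentile 86.4 of the deeply covered genes. Its unlabeled rates of 0.00510 and 0.00797 were the highest of the 10 members. This background stood at the percentile 99.6 of the deeply covered genes, whose median background was 0.000510. In the unlabeled libraries 69 of 598 and 83 of 541 reads of *Stat3* carried a conversion, and each of these reads carried exactly 1, against 1.48 to 1.61 conversions per converted read in the labeled libraries. The fewer converted reads of other members in the unlabeled libraries also carried exactly 1 each. With the mean unlabeled rate subtracted from every gene, *Stat3* was at 0.0378 and the percentile 48.4. The positions of the conversions are not part of the tables, and what made this background was not tested.

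*Socs3* lies at chr11:117856905-117858378 on the minus strand, and its interval overlaps the lncRNA *Gm73339* on the other strand. Its rates were 0.0362, 0.0384 and 0.0384 in the labeled libraries and 0.000643 and 0.000364 in the unlabeled ones. The labeled mean of 0.0377 ± 0.00127 (SD, n = 3) was close to the median of the deeply covered genes, at the percentile 42.1. The promoter of *Socs3*, from 250 bases before to 50 after the start in RefSeq on GRCm38.p6, was the single one among those of the 9 members in that table that held TTCNNNGAA, the palindrome that STAT proteins are known to bind. It lies 154 bases before the start, and 8.30% of the 32851 promoters in the table hold these letters, which read alike on both strands. The 30 bases around it, found again on GRCm39, are shown with the motif in capitals.
Socs3 promoter, minus strand, chr11:117860327-117860356: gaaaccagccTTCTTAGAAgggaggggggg

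Set in order of the mean labeled rate, the members ran from *Lif* through *Stat3*, *Clcf1*, *Il6*, *Il11*, *Socs3*, *Il6ra*, *Lifr* and *Il6st* to *Osmr*. For no neighbours in this order did the ranges over the labeled libraries stay apart. The means of the 4 ligands were above the median of the deeply covered genes, and those of the 4 receptor chains and of *Socs3* were below it. With the labeled libraries pooled, however, *Il11* at 0.0326 was below that median and *Lifr* at 0.0401 above it, and *Il11* was also below it with its intervals summed (0.0358) and without labeled replicate 2. Without labeled replicate 1, *Il6ra* was at 0.0481 and the percentile 95.2, and without labeled replicate 3, *Lifr* was at 0.0415 and the percentile 71.8, both above the median. By the fraction of reads with a conversion, *Lifr* at 0.570 and *Osmr* at 0.528 were above the median of 0.527 and *Il11* at 0.440 below it. The order of *Il6*, *Lif* and *Clcf1* above *Il6st* and *Osmr* in the mean held with background subtraction and with pooling. Within single libraries it held only in labeled replicate 3. In labeled replicate 1, *Il6* at 0.0337 was below *Il6st* at 0.0344 and *Osmr* at 0.0369. In labeled replicate 2, *Lif* at 0.0338 was below *Il6st* at 0.0370 and *Osmr* at 0.0360. Among the deeply covered genes, the 752 with TATTTAT had a median rate of 0.0398 and the 1355 without it 0.0382, a description of the genes around the members rather than a test.

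**Figure D2:**
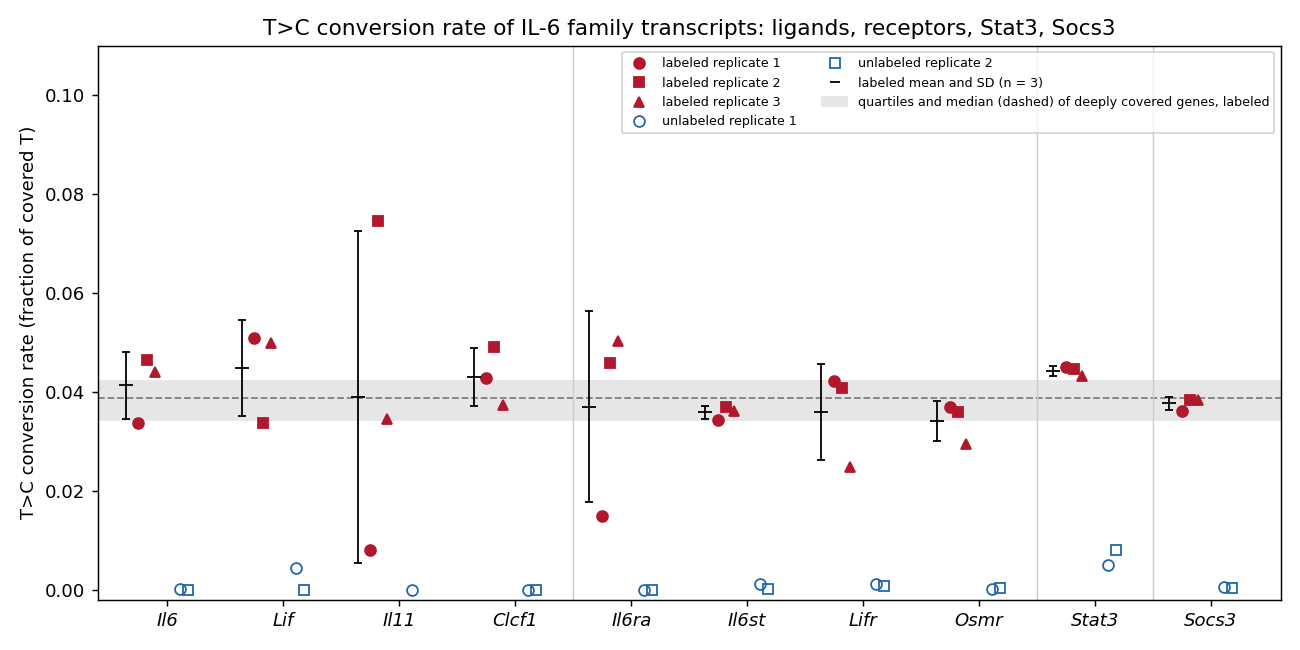
T>C conversion rate (fraction of covered T positions, y axis) of each member in each library, labeled filled and unlabeled open, with the labeled mean and SD (n = 3) at the left of each gene. The band gives the quartiles 0.0343 and 0.0422 and the dashed line the median 0.0388 of the deeply covered genes. *Il11* from 0.0080 to 0.0746 and *Il6ra* from 0.0149 to 0.0504 spread most, and *Stat3* has the highest unlabeled points.

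Transcript levels are given as CPM relative to the reads counted on 1 interval per gene. The libraries hold reads near the transcript end, so levels were not divided by length. In the labeled libraries *Stat3* (473 ± 83.3, SD, n = 3) and *Il6st* (467 ± 108) had the highest mean levels, followed by *Osmr* (115 ± 19.5), *Socs3* (106 ± 19.7) and *Il6* (85.4 ± 7.73). Lower levels were found for *Lifr* (38.1 ± 19.8), *Il6ra* (33.3 ± 17.8), *Clcf1* (15.3 ± 2.14), *Lif* (13.7 ± 5.89) and *Il11* (7.21 ± 5.76). Of neighbours in this order, *Il6st* and *Osmr*, and *Il6* and *Lifr*, had ranges over the labeled libraries that did not overlap. The ranges of the other neighbours overlapped, although *Socs3* was above *Il6* and *Il6ra* above *Clcf1* within each of the 5 libraries. With all intervals of a gene summed, where overlapping intervals such as those of *Il6* and *Stat3* count the same reads again, *Il6* at 117 CPM was above *Socs3* at 72.5, and *Stat3* was at 974 and *Lifr* at 71.0. *Il6* was thus the most abundant of the 4 ligands in every library, and gp130 the most abundant of the 4 receptor chains.

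For all 4 ligands, each labeled library lay above both unlabeled ones. *Il6* was at 93.3, 77.8 and 85.0 CPM in the labeled and 70.0 and 44.2 in the unlabeled libraries. *Lif* was at 19.7, 13.4 and 7.90 CPM against 4.88 and 3.01, and *Clcf1* at 14.0, 14.2 and 17.8 against 4.34 and 2.01. *Il11* was at 4.44, 3.35 and 13.8 CPM, from 7, 4 and 7 reads, against 1.63 from 3 reads and 0 from no read, which allows a level of up to 3.01 CPM. Without labeled replicate 3 the labeled mean of *Il11* was 3.89. Of the genes that passed the filter on low reads, 8.2% had every labeled library above both unlabeled ones. *Il6*, *Lif* and *Clcf1* passed that filter and *Il11* did not. The sum of the 4 ligands was 131, 109 and 124 CPM in the labeled and 80.8 and 49.2 in the unlabeled libraries.

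In edgeR's quasi-likelihood test no member and 0% of the 9807 genes tested passed an adjusted p of 0.05, in either direction. That fit ignores the replicate numbers. With them as a block, a fit with 1 residual degree of freedom, *Clcf1*, *Lif*, *Il6*, *Il6st* and *Lifr* passed. So did 1146 of all 9807 genes tested in that fit, 528 of them higher and 618 lower, these members included. Without the block, 2.84% of the 9807 genes were higher and 3.12% lower in the labeled libraries at an unadjusted p under 0.05. Among the 9 members tested 2 were higher in this way, *Lif* and *Clcf1*, and 1 was lower, *Lifr*. *Lif* and *Clcf1* had fewer than 10 reads in both unlabeled libraries and passed the filter on low reads through the labeled ones, where they are high, so their count supports nothing and neither could be tested with at least 10 reads required in every library. The log2 fold change of reads, labeled against unlabeled, was 2.21 for *Clcf1* (standard error 0.54, edgeR unadjusted p = 0.00439, adjusted p = 0.547). It was 1.86 for *Lif* (standard error 0.57, edgeR unadjusted p = 0.0134, adjusted p = 0.704) and 0.66 for *Il6* (standard error 0.29, edgeR unadjusted p = 0.0610, adjusted p = 0.867). *Clcf1* rested on 22, 17 and 9 reads against 8 and 2, and *Lif* on 31, 16 and 4 against 9 and 3. On the deposited CPM, whose reference number of reads was 7.58 to 28.9 times the counted reads, *Il6* and *Lif* overlapped between the groups, and *Clcf1* and *Il11* did not. The lowest labeled value was 0.616 for *Clcf1* and 0.284 for *Il11*, close to the highest unlabeled values of 0.552 and 0.207. Of the genes tested, which do not include *Il11*, 0.398% had every labeled library above both unlabeled ones on this scale.

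The receptor chains had no such higher level. *Lifr* was at 60.9, 27.6 and 25.7 CPM in the labeled and 135 and 90.3 in the unlabeled libraries, and so each labeled library lay below both unlabeled ones. Of all genes tested, 13.1% were lower in this way. The log2 fold change of *Lifr* was -1.45 (standard error 0.41, edgeR unadjusted p = 0.00986, adjusted p = 0.626). *Il6st* was at 356, 572 and 472 CPM against 557 and 836, where labeled replicate 2 overlapped unlabeled replicate 1 (log2 fold change -0.51, standard error 0.32). With the replicate number as a block, the log2 fold change of *Il6st* was -0.55 (edgeR adjusted p = 0.00509), though no label pairs the libraries. *Osmr* was at 136, 109 and 98.8 CPM against 126 and 118, with a log2 fold change of -0.01 (standard error 0.25) whose sign changed with the scaling. *Il6ra* was at 52.7, 17.6 and 29.6 CPM against 66.2 and 23.1 (log2 fold change -0.34, standard error 0.57, and 0.57 without unlabeled replicate 1), and libraries of 1 group differed by more than the group means did. The 4 chains summed to 606, 726 and 626 CPM in the labeled and 884 and 1068 in the unlabeled libraries. Most of each sum was *Il6st*, whose own groups overlapped, and a difference in the sum was not tested.

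*Stat3* was at 399, 563 and 456 CPM in the labeled and 324 and 543 in the unlabeled libraries, and the groups overlapped (log2 fold change 0.19, standard error 0.33, and -0.17 without unlabeled replicate 1). *Socs3* was at 127, 87.9 and 103 CPM against 125 and 133 (log2 fold change -0.21, standard error 0.27). The groups overlapped for *Socs3* through labeled replicate 1 alone. These members, like *Osmr* and *Il6ra*, did not pass the test, which does not show that their levels were equal.

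**Figure D3:**
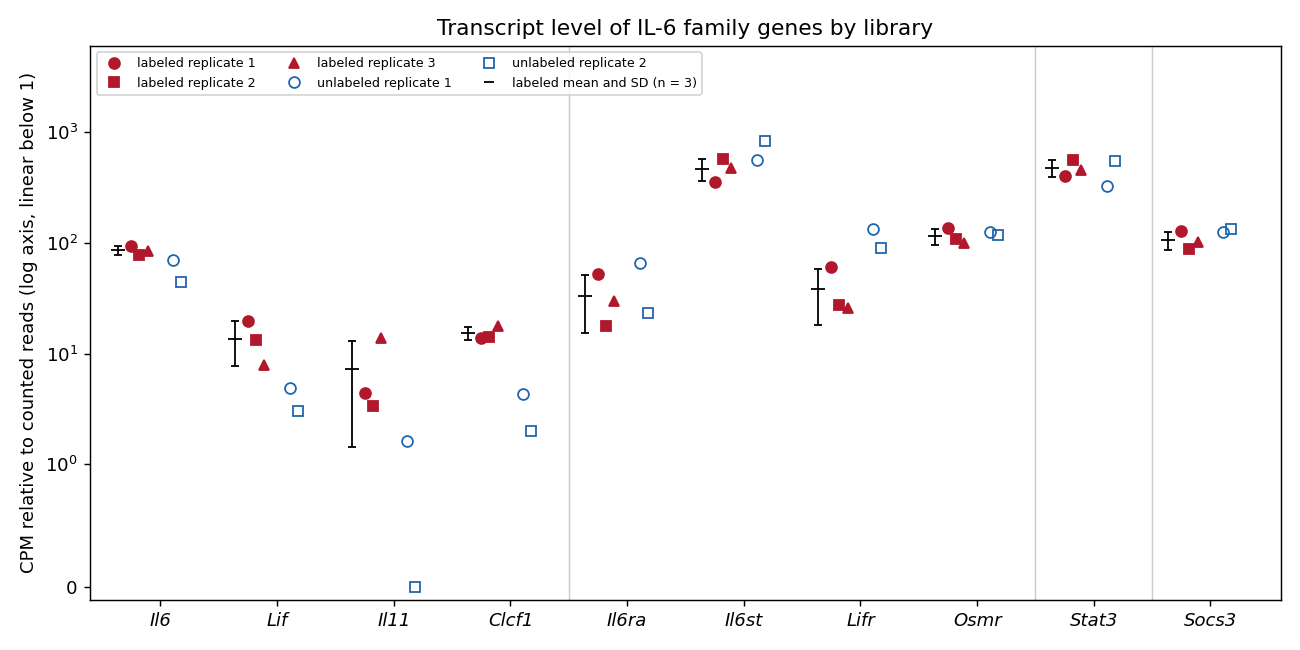
Transcript level of each member in each library, in CPM relative to counted reads on a log axis that is linear below 1, with the labeled mean and SD (n = 3) at the left of each gene. The filled labeled points of the 4 ligands lie above the open unlabeled ones, those of *Lifr* lie below (25.7 to 60.9 against 90.3 and 135), and those of the other members overlap.

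Other genes of the pathway were read from lists of the family. *Osm*, the ligand of *Osmr*, had 2, 0 and 0 reads in the labeled and 1 and 0 in the unlabeled libraries, and *Cntfr*, the private chain of the CNTF receptor, had 1 labeled and 3 unlabeled reads. *Il11ra1*, the private chain for IL-11, was well detected at 216, 307 and 304 CPM against 410 and 423, and was lower in every labeled library (log2 fold change -0.52, standard error 0.27, edgeR adjusted p = 0.913).

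Of the 9807 genes tested, 5072 had a positive log2 fold change. All 8 kinases and other STATs past the filter had a negative log2 fold change, with a median of -0.26 against 0.02 over all genes tested, and none passed the test at an unadjusted p under 0.05. Of the 11 other feedback genes and phosphatases past the filter, 6 had a positive log2 fold change (median 0.16). *Socs5* alone passed an unadjusted p of 0.05, at 144, 149 and 126 CPM against 89.0 and 69.3 (log2 fold change 0.90, standard error 0.25, edgeR unadjusted p = 0.00903, adjusted p = 0.626). *Ptpn2*, a phosphatase of JAK and STAT proteins, had the highest mean rate of the list, at 0.0508 ± 0.0174 (SD, n = 3). Its rates of 0.0330, 0.0516 and 0.0678 in the labeled libraries spread widely, and in labeled replicate 1 it was below *Socs7* at 0.0439.

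Of 17 known STAT3 target genes past the filter, 10 had a positive log2 fold change (median 0.05), 1 had every labeled library above both unlabeled ones and 3 had every labeled library below, against 8.2% and 13.1% of all genes tested. The 1 was *Timp1*, an inhibitor of matrix metalloproteinases, at 520, 1509 and 927 CPM against 124 and 283 (log2 fold change 2.34, standard error 0.59, edgeR unadjusted p = 0.00513, adjusted p = 0.585). The 3 were *Hif1a*, *Mcl1* and *Saa3*. The rates of the targets went down to 0.00657 ± 0.00262 (SD, n = 3) for *Hp*, which encodes haptoglobin, and 0.00891 ± 0.00229 for *Lbp*, which encodes the lipopolysaccharide binding protein. Both were well below the lowest rate among the 10 members, 0.0341 for *Osmr*.

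**Figure D4:**
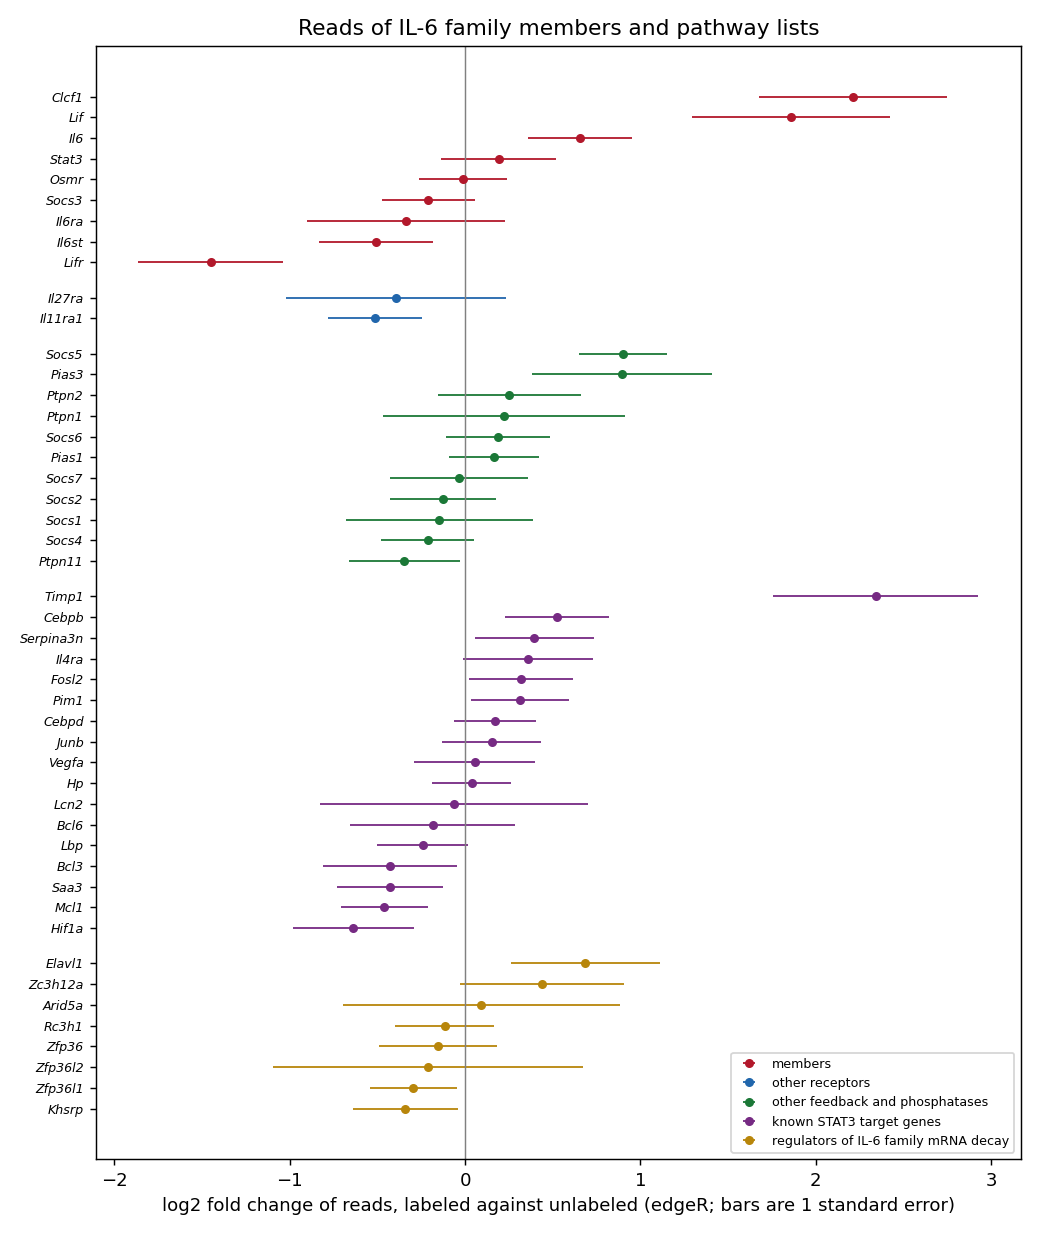
Log2 fold change of reads, labeled against unlabeled, from edgeR with bars of 1 standard error, for the 9 members past the filter and 4 pathway lists (other receptors, other feedback and phosphatases, known STAT3 target genes, decay regulators; x axis, 0 marks no difference). *Clcf1* at 2.21 and *Lif* at 1.86 lie at the right end of the members, *Lifr* at -1.45 at the left end, and no point passed an adjusted p of 0.05 in this fit without the replicate block.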

How the data were processed

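SLAMseq libraries of CF were grouped by the labels into 3 labeled and 2 unlabeled ones. Per the study's methods, CF were depleted of CD31 and CD45 positive cells, 2 wells made a sample, and QuantSeq 3′ FWD libraries with molecular identifiers (UMI) were sequenced. The authors extracted UMIs with umi-tools, mapped reads to mm39 with SLAM-DUNK 0.4.3 (per the file headers) and removed duplicates. The deposited tables give, per 3′ UTR interval, raw counts of reads, of conversions and of covered T. Their conversion rate, also deposited, is the fraction of covered T positions with a conversion. The deposited CPM divides reads by a number 7.58 to 28.9 times the reads counted here, so levels were computed as CPM relative to counted reads. The origin of the interval set is not given in the sources used here, and 2 deposited columns of bounds on the rate hold no values and were not used.

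Of the 97442 rows per table, the 40428 distinct intervals were kept. All 40380 on chromosomes had the T content of GRCm39. Coordinates count from 1. Rates were compared with a two-sided beta-binomial test (likelihood ratio, 1 overdispersion for both groups) over all intervals with at least 1 covered T position in every library, with an unadjusted threshold of 0.05 after the study's methods. For reads, the quasi-likelihood test of edgeR 4.0.16 was run in R 4.3.3 after filterByExpr, with TMM factors and Benjamini-Hochberg adjustment over 9807 genes. DESeq2 1.42.0 and limma 3.58.1 served for alternatives, and Python 3.11.15 with scipy 1.17.1 and pysam 0.24.0 for the rest.

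The members and lists were chosen with earlier results of these data known. Genes named are the 10 members and those genes of the pathway lists that lie past a test or at the ends of their list. *Osm*, *Cntfr* and *Il11ra1*, as well as *Hif1a*, *Mcl1* and *Saa3*, were named after their values were seen. Some genes of the lists are not reported here. Within groups, read counts differed beyond sampling noise (chi-square per degree of freedom 2.04 to 16.6), and no library was treated as a copy. On simulated data with a rate 10 times lower in unlabeled libraries, the beta-binomial test called 96.5% of 200 changed and 5.64% of 2800 unchanged intervals. In counts simulated for 9549 genes, 200 of them changed by 2 on the log2 scale, edgeR found 139 of the changed genes and made 14 false calls, edgeR with the replicate block found 141 and made 32, and DESeq2 found 163 and made 25. Alternatives were other coverage minimums, intervals summed per gene, limma on log odds with a pseudocount of 0.5, the share of reads with a conversion, background subtraction, pooling, deposited CPM, DESeq2, other size factors and filters, the replicate number as a block and each library left out. Benjamini-Hochberg adjustment of the rate test and TMM-scaled CPM were chosen after seeing the data.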

Additional observations from a re-analysis of the deposited data

How the results depend on the processing

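The number of intervals with a higher rate in the labeled libraries, 18199, was 10705 with intervals summed per gene and 3154 with at least 1000 covered T positions, as fewer intervals were then tested, and 17056 to 18632 with 1 library left out. The 9 members with a higher rate were 5 with at least 1000 covered T positions (*Il6*, *Il6st*, *Osmr*, *Stat3*, *Socs3*) and 7 with at least 100. With the deposited CPM, 2 ligands in place of 4 had every labeled library above both unlabeled ones (0.398% of genes tested did), and 2 members in place of 1 had every labeled library below, *Il6st* besides *Lifr* (12.1% of genes tested). Leaving out 1 library gave 1 to 3 members below: *Osmr* and *Socs3* joined *Lifr* without labeled replicate 1, *Il6st* without labeled replicate 2, *Il6st* and *Socs3* without unlabeled replicate 1, and *Il6ra* without unlabeled replicate 2, while 16.1% to 33.3% of genes tested were below. All 4 ligands were above in each of these 5 cases, as were 11.5% to 23.1% of genes tested. For the ligands above and *Lifr* below this was fixed in advance, because leaving out a library cannot make separate groups overlap. It therefore adds no support. *Il11* is not among the genes tested, and *Lif* and *Clcf1* passed the filter on low reads through the labeled libraries. *Stat3* joined the ligands above without unlabeled replicate 2. With intervals summed per gene, which counts reads of overlapping intervals more than once, the labeled level of *Stat3* was 974 CPM in place of 473, that of *Lifr* 71.0 in place of 38.1 and that of *Il11* 10.9 in place of 7.21. DESeq2 called 13 genes higher and 7 lower, none of them a member, with no adjusted p for *Lif* and *Clcf1*. With the replicate block, a fit with 1 residual degree of freedom, 528 genes were higher and 618 lower, with log2 fold changes of 2.06 for *Clcf1* (adjusted p = 0.00120), 2.09 for *Lif* (0.000339), 0.63 for *Il6* (0.0211), -0.55 for *Il6st* (0.00509) and -1.29 for *Lifr* (4.03e-08) in edgeR. Libraries with the same number correlated at 0.784 and 0.638 in their deviations from the group means, but with 2 unlabeled libraries these deviations mirror each other, labeled replicate 3 correlated with unlabeled replicate 2 at 0.482, and no label says that a number marks a shared preparation. The cause of these moves was not tested. Over the edgeR settings without the block that could test them, the adjusted p was 0.405 or more for *Clcf1*, 0.686 or more for *Lif* and 0.332 or more for *Lifr*. *Lif* and *Clcf1* were not tested with at least 10 reads in every library, nor *Lif* without labeled replicate 1. The sign of the log2 fold change reversed for 3 members that had passed no test. It ran from -0.90 to 0.57 for *Il6ra*, from -0.17 to 0.67 for *Stat3* and from -0.14 to 0.070 for *Osmr* with 1 library left out, and for *Osmr* it was 0.0026 with upper-quartile size factors and 0.067 with the block. The rates of *Lif*, *Clcf1* and *Lifr* rested on the fewest covered T positions in labeled replicate 3 (100, 241 and 363), and those of *Il11* and *Il6ra* in labeled replicate 2 (67 and 131), among the labeled libraries.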

Other observations

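The 8 regulators of IL-6 family mRNA decay, among them the AU-rich element binding proteins of the *Zfp36* genes, *Khsrp* and *Elavl1* and the nucleases and helper proteins *Zc3h12a*, *Rc3h1* and *Arid5a*, all passed the filter on low reads. Their median log2 fold change was -0.14, 3 of 8 were positive (5072 of all 9807 genes tested were), and none passed an unadjusted p of 0.05 in edgeR's test. *Zfp36l1* was the most abundant at 442 ± 32.6 CPM (SD, n = 3 labeled libraries) and each labeled library lay below both unlabeled ones, at 455, 405 and 466 CPM against 513 and 628. *Elavl1*, which encodes the stabilising protein HuR, had the highest T>C conversion rate of the list, at 0.0462 ± 0.00502 (SD, n = 3), and its level was 54.6, 86.2 and 77.1 CPM against 30.9 and 64.2, where the groups overlapped. *Zfp36*, which encodes tristetraprolin, had a rate of 0.0361 ± 0.00680 (SD, n = 3).

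The ratio of *Il6* to *Lif* reads was 4.74, 5.81 and 10.8 in the labeled and 14.3 and 14.7 in the unlabeled libraries, from few *Lif* reads. The ratio of *Il6st* to *Lifr* reads was 5.84, 20.7 and 18.4 against 4.14 and 9.26, where the groups overlapped.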
